A study of Macaca mulatta with 22 samples.

Results

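Solute carriers are membrane proteins that move small molecules across cell and organelle membranes, and their genes share the symbol SLC with a family number. Members were all genes in which a peak of N6-methyladenosine (m6A), a methylated adenosine in RNA, had been called and whose symbol begins with SLC and a digit, with SLC32A1 left out. They numbered 46 of the 3671 genes with a peak in any of 11 animals, and they held 118 of 10069 peaks. The rule used symbols and the presence of a peak in any animal, not the treatment. SLC4A1AP is a member by its symbol, although it encodes an adaptor protein that binds a bicarbonate exchanger and is no carrier itself.

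Solute carriers feed the brain glucose, lactate, amino acids, creatine and choline, clear glutamate and glycine from synapses, and set the chloride, proton and calcium gradients that neurons fire with. The glucose carrier SLC2A1 of the blood-brain barrier and astrocytes and the glutamate carrier SLC1A3 of astrocytes are among the best known in cortex. m6A is deposited on nascent transcripts by a methyltransferase complex, is frequent near stop codons and in 3′ untranslated regions (UTRs), and is read by proteins that affect the stability and translation of the mRNA.

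Fragmented RNA of infant rhesus macaque (Macaca mulatta) prefrontal cortex was enriched with an antibody against m6A, and enriched stretches were reported as peaks with 1 list per animal. The 6 control animals were males A and B and females C, C1, C2 and C3. The 5 sevoflurane animals were males D and S1 and females F, S2 and S3, which inhaled the anaesthetic at about 2.5 to 3% for 4 h on about postnatal days 7, 21 and 35. Tissue was taken at postnatal day 35 in both groups. The labels give no genotype or strain, and how controls were handled during the exposures is not given in the sources used here. The tissue is bulk cortex, so m6A in neurons, glia and vessels is mixed.

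Lists held 452 to 1210 peaks in controls and 852 to 1673 after sevoflurane. The number of reads behind a peak is not known here, and RNA levels were not analysed here. A gene without a peak may have less methylation, less RNA per cell or fewer cells of the type that expresses it. A peak may also be missed where reads are few or enrichment is weak, and these cannot be told apart. Of the neuronal markers 3 of 11 had a peak, of the astrocyte markers 2 of 8, of oligodendrocyte lineage markers 3 of 8, and of microglial and endothelial or mural markers 1 of 7 each. None of the 4 choroid plexus and ependymal markers had one. The presence of a peak is not a level, so these counts check the tissue only loosely. Neuronal markers with a peak averaged 1.33 ± 1.21 (SD, n = 6) per control and 1 ± 0.707 (SD, n = 5) per sevoflurane animal, and oligodendrocyte lineage markers 0.5 ± 0.548 and 1.4 ± 0.548. The higher oligodendrocyte lineage mean rested mostly on PDGFRA, called in no control and 3 sevoflurane animals. MBP was called in 1 sevoflurane animal only, and CNP in 3 animals of each group. Astrocyte markers averaged 0.167 per control and 0.2 per sevoflurane animal. Microglial and endothelial or mural markers averaged 0.167 and 0 each. The part of cell types in the solute carrier counts was not tested.

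Peaks in solute carrier genes were more numerous after sevoflurane, in step with longer lists. Control animals had a peak in 7 (A), 7 (B), 8 (C), 4 (C1), 7 (C2) and 7 (C3) solute carrier genes. Sevoflurane animals had one in 13 (D), 15 (F), 7 (S1), 18 (S2) and 16 (S3). S1 lay inside the control range and the other 4 sevoflurane animals lay above every control. The mean was 6.67 ± 1.37 genes (SD, n = 6) in controls and 13.8 ± 4.21 (SD, n = 5) after sevoflurane, 2.07 times as many. Over all genes with a peak the same ratio of means was 1.74.

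Relative to the length of the lists the groups overlapped. Solute carriers made up 1.2 ± 0.38% (SD, n = 6) of an animal's genes with a peak in controls, from 0.667% in C3 to 1.78% in C, and 1.30 ± 0.204% (SD, n = 5) after sevoflurane, from 0.954% in S1 to 1.46% in F. The difference of 0.103 percentage points was smaller than the spread between animals, and without C3 it was -0.00316. With each list cut to its 452 peaks of lowest p-value, the number of solute carrier genes averaged 5 in controls and 5.4 after sevoflurane. Longer lists and more solute carrier genes went together between the groups but not among controls. C3, with 1210 peaks, had 7 solute carrier genes, whereas D, F and S3, with 1146, 1178 and 1236 peaks, had 13, 15 and 16.

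By number of solute carrier genes, the sexes gave different pictures of the overlap between groups. Males had 7 in each of 2 controls, against 13 and 7 in D and S1. Females averaged 6.5 ± 1.73 (SD, n = 4) in controls and 16.3 ± 1.53 (SD, n = 3) after sevoflurane, and these counts did not overlap. All genes with a peak averaged 637 in control females and 1162 in sevoflurane females. As a share of those genes the female groups overlapped, with 0.667 to 1.78% in controls and 1.33 to 1.46% after sevoflurane. The male groups overlapped in number, and whether the sexes differ in this was not tested.

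**Figure D1:**
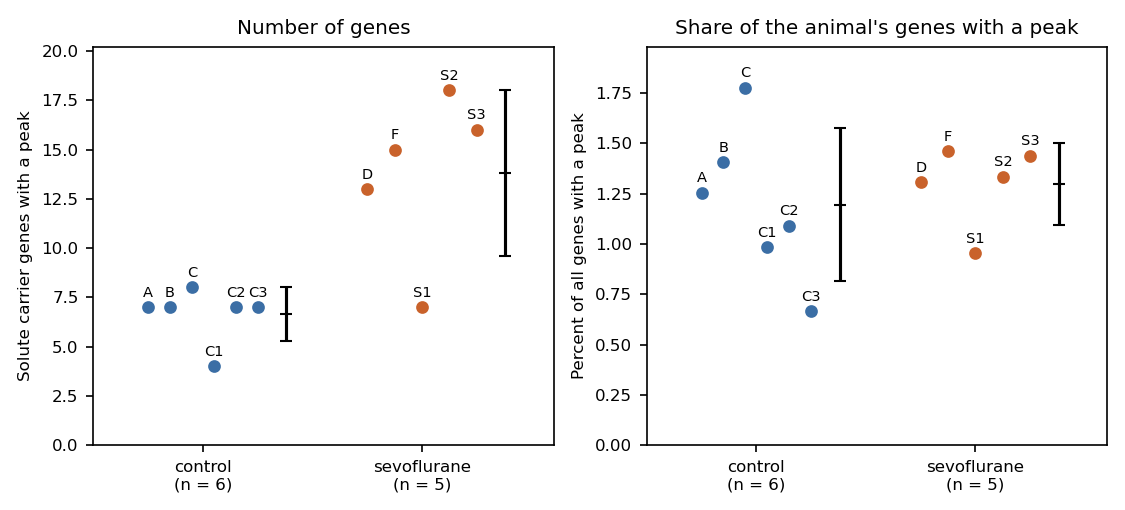
The left panel plots the number of solute carrier genes with an m6A peak in each animal and the right panel their share (%) of all genes with a peak, by group, with points for animals and bars for mean and SD. Sevoflurane animals had 7 to 18 genes against 4 to 8 in controls, whereas the shares of the groups overlapped.

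Most solute carrier genes were seen in few animals. Of the 46, 27 (58.7%) had a peak in 1 animal only, against 55.9% of all genes with a peak. A further 13 had one in 2 to 5 animals, and 6 (13%, against 11.1% of all genes) in at least 6. No solute carrier gene had one in all 11 animals, whereas 81 genes of the whole set (2.21%) did. Solute carrier genes seen only after sevoflurane numbered 23 (50%, all genes 44.9%), only in controls 7 (15.2%, all genes 22.8%), and in both groups 16 (34.8%, all genes 32.2%). Of the 27 single-animal genes 7 came from controls and 20 from sevoflurane animals, whose lists were longer, 9 of them from S3. The same split over all genes is not given here, so it is not read as a trait of solute carriers.

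Of 357 named solute carrier genes in the naming tables, 46 (12.9%) had a peak, against 17.9% of all symbols. The bases differ slightly. The 46 include 3 members named only by the peak tables, where every gene has a peak, and the 17.9% uses the names table alone. Whether the other members are expressed in this tissue was not analysed here.

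**Figure D2:**
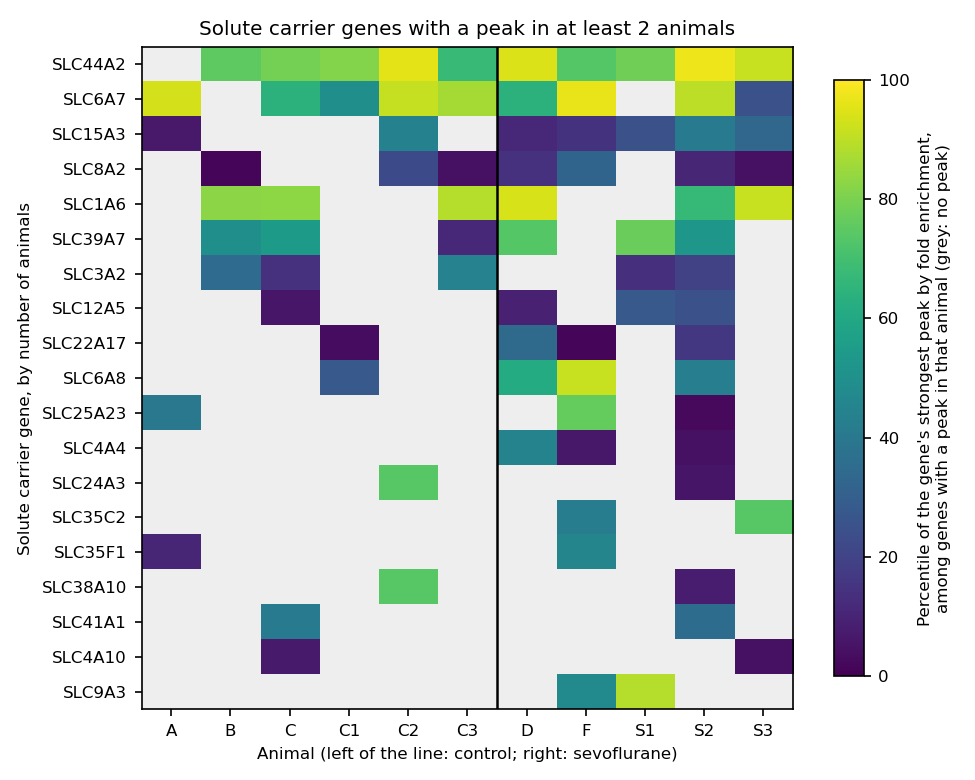
Each row is a solute carrier gene with a peak in at least 2 animals (19 genes) and each column an animal (6 control, 5 sevoflurane), coloured by the percentile of the authors' fold enrichment of the gene's strongest peak within that animal's list, grey where no peak was called. Only SLC44A2 and SLC6A7 fill at least 9 of the 11 columns.

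Across 18 solute carrier genes that had a peak in 2 to 9 animals, Fisher's exact test called 0 at an unadjusted p under 0.05, in either direction, and over all 1486 genes tested it called 27 (1.82%) higher after sevoflurane and 0 (0%) higher in controls. No gene of the 1486 passed Benjamini-Hochberg adjustment, and the smallest adjusted p of a solute carrier gene was 0.606. In 16 of the 18 (88.9%) the share of animals with a peak was higher after sevoflurane, against 83.2% of all tested genes. The median difference was 16.7 percentage points in the solute carriers and 23.3 over all tested genes.

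The choline transporter-like gene SLC44A2 had a peak in 10 animals, all but A, and so was outside the range tested. The authors' fold enrichment of its strongest peak was 19.4 (B), 26.9 (C), 18.5 (C1), 39.7 (C2) and 10.6 (C3) in controls. After sevoflurane it was 44 (D), 18.2 (F), 17.9 (S1), 59.6 (S2) and 34.9 (S3). These values are printed as deposited, here and for the other genes, and lists are set side by side only by the percentile that a gene's strongest peak reached among the genes of its own list. For SLC44A2 the percentile was 67.7 to 95.7 in controls and 73.8 to 97.4 after sevoflurane, and the groups overlapped. Its median percentile within the lists was 80.2. In most animals the peak lay in its 3′ UTR at chr19:10680139-10680378 (plus strand, rheMac8), present in 5 controls and 4 sevoflurane animals. A second region, upstream and annotated as exonic, chr19:10678630-10679513, held a peak in C3 among controls and in D, F, S1 and S3 after sevoflurane. The difference, 1 of 6 against 4 of 5, did not reach the threshold (Fisher's exact p = 0.0801, adjusted p = 0.610). Without C3 the same region was in 0 of 5 against 4 of 5 (exact p = 0.0476), and without S2 in 1 of 6 against 4 of 4 (exact p = 0.0476). C3 was the only control with this peak and S2 the only sevoflurane animal without it. Over leaving out each animal in turn, Fisher's exact p for the region ran up to 0.206. The strongest peaks of D and F lay in this upstream region, and those of the other animals in the 3′ UTR.

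The brain proline carrier SLC6A7 had a peak in 9 animals, 5 control and 4 sevoflurane (exact p = 1). Its fold enrichment was 46.7 (A), 12.7 (C), 6.02 (C1), 30.3 (C2) and 21.1 (C3) in controls and 11 (D), 52.2 (F), 30.9 (S2) and 3.35 (S3) after sevoflurane. The peak was absent from B and S1. All 9 peaks formed 1 region, chr6:148344752-148345081 (plus strand), in the 3′ UTR. Its median percentile of 86.5 was the highest among the solute carriers in at least 6 animals. The percentile ranged from 24.8 in S3 to 96.8.

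The glutamate carrier SLC1A6 was called in 6 animals, 3 from each group (exact p = 1). Its fold enrichment was 28.3 (B), 29.9 (C) and 22.6 (C3) in controls and 41.8 (D), 10.6 (S2) and 34.9 (S3) after sevoflurane. All lay at chr19:14836623-14836861 (minus strand), near the 3′ end of the gene, and the median percentile was 85.9. The other members of this family with a peak were called once each. SLC1A3 had a peak in control A only, at chr6:37058262-37058381 (plus strand) in the 3′ UTR, with a fold enrichment of 2.87, which was at percentile 4.66 of that list. SLC1A1, the neuronal glutamate carrier, had a peak in S3 (fold 2.77), and SLC1A4, a neutral amino acid exchanger, in F (3.67). Of the astrocyte glutamate carriers, SLC1A2 had none.

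Among other amino acid and amine carriers, SLC3A2, the heavy chain that brings several SLC7 exchangers to the membrane, was called in 5 animals, 3 of them controls. Its fold enrichment was 5.17 (B), 3.52 (C) and 5.16 (C3) against 3.29 (S1) and 3.28 (S2). Within the lists these stood at percentiles of 34.9, 14.1 and 44.4 against 13.6 and 19.8, and the groups overlapped. Peaks of SLC3A2 (minus strand) each had 2 blocks. Their midpoints, introns included, lay 5′ of the annotated span, so their place in the gene was not read. The creatine carrier SLC6A8 had a peak in C1 (3.90), and in D (9.90), F (34) and S2 (5.32). That is 1 of 6 against 3 of 5 (exact p = 0.242, adjusted p = 0.635), all at chrX:147160202-147160411 (plus strand). The remaining members of the class were seen in 1 or 2 animals. SLC38A10 had a peak in C2 and S2, and SLC38A5 in A with a fold enrichment of 38.9. SLC18B1, SLC6A9, SLC7A11, SLC7A6 and SLC38A2 had one after sevoflurane in 1 animal each, S3, F, S3, D and D. The SLC6A9 peak, in the glycine carrier of glia, also lay within B4GALT2 and CCDC24. These single-animal genes lie outside the naming rule and were listed after their values were seen. Of 72 named amino acid and neurotransmitter carriers 14 (19.4%) had a peak, 2.50 ± 0.548 (SD, n = 6) per control and 4 ± 1.73 (SD, n = 5) per sevoflurane animal, with S1 at 1.

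SLC15A3, a lysosomal peptide and histidine carrier known from immune cells, was called in all 5 sevoflurane animals and in 2 of 6 controls (exact p = 0.0606, adjusted p = 0.606). Without A or without C2, the 2 controls with a peak, it was 1 of 5 controls (exact p = 0.0476). Over leaving out each animal in turn, Fisher's exact p for the gene ran up to 0.167. With peaks limited to p at most 1e-05 it was 1 of 6 against 3 of 5 (exact p = 0.242), and with lists of equal length 1 of 6 against 1 of 5 (exact p = 1). Its fold enrichment was 3.04 (A) and 6.62 (C2) in controls and 2.88 (D), 3.12 (F), 4.08 (S1), 5.11 (S2) and 3.77 (S3) after sevoflurane, at a median percentile of 24.9. Within the lists it stood at percentiles of 6.81 and 43.9 in controls and of 11.4 to 41.1 after sevoflurane, and the groups overlapped. Peaks fell into 2 regions of the 3′ UTR. The region at chr14:13346154-13346333 (plus strand) had a peak in D, F, S1 and S3, 4 of 5, and in 0 of 6 controls, and the other, chr14:13345767-13345975, in A, C2 and S2. For the first, Fisher's exact p was 0.0152 and adjusted p = 0.610, over 1265 regions. It was the single solute carrier region, of 17 tested, called at an unadjusted p under 0.05, against a background of 19 (1.5%) after sevoflurane and 0 (0%) in controls. With peaks limited to p at most 1e-05, the region was present in 2 of 5 against 0 of 6 (exact p = 0.182), and in females alone in 2 of 3 against 0 of 4 (exact p = 0.143). The files also placed the unnamed gene ENSMMUG00000048385 at distance 0 from all 7 peaks, so they cannot be ascribed to 1 gene.

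**Figure D3:**
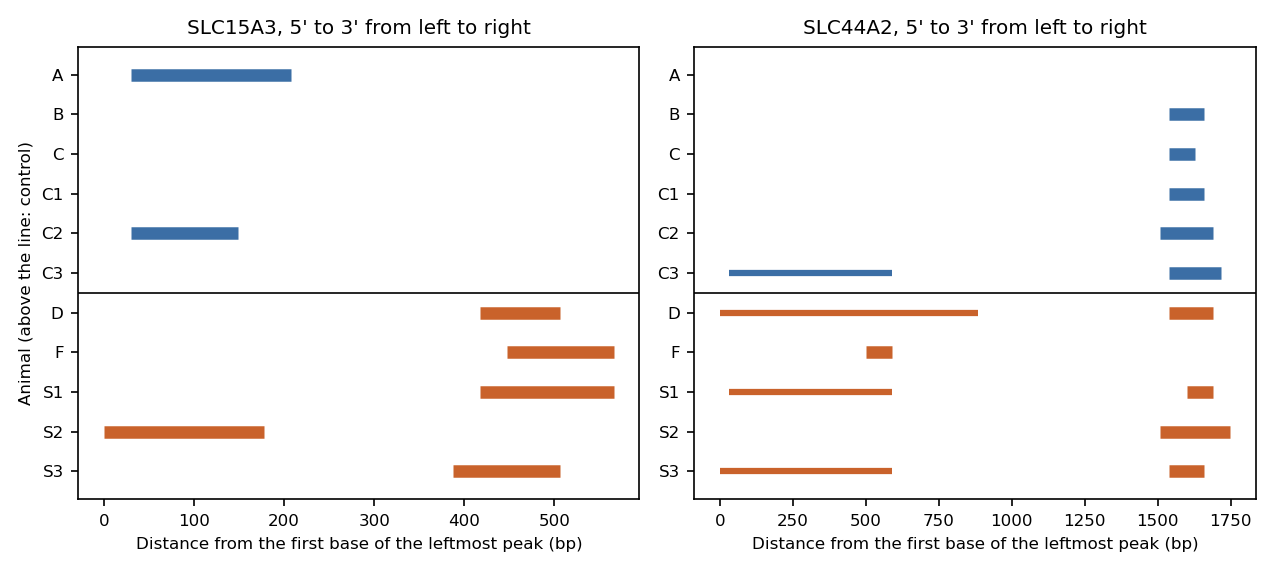
Peaks of SLC15A3 and SLC44A2 are drawn by animal against distance from the first base of any of the gene's peaks (bp), controls above the line and sevoflurane below. Thick bars are peaks of 1 block, and thin bars are peaks of several blocks, drawn over their whole span with introns. In SLC15A3, controls A and C2 and sevoflurane S2 hold the 5′-side region, and D, F, S1 and S3 the 3′-side region.

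The ion carrier families, SLC4A1AP included by its symbol, had the highest share of named members with a peak, 13 of 56 (23.2%), with 1.67 ± 1.21 genes (SD, n = 6) per control and 3.6 ± 1.52 (SD, n = 5) per sevoflurane animal. SLC8A2, a sodium-calcium exchanger of neurons, was called in 7 animals, 3 controls and 4 after sevoflurane (exact p = 0.545), with low fold enrichment of 2.46 (B), 3.97 (C2) and 2.46 (C3), and 3.02 (D), 4.54 (F), 2.78 (S2) and 2.55 (S3). All 7 shared 1 region, chr19:42826101-42842550 (minus strand, including introns). The bicarbonate cotransporter SLC4A4, abundant in astrocytes, had a peak in no control and in D (6.01), F (2.64) and S2 (2.51), or 3 of 5 (exact p = 0.0606, adjusted p = 0.606). Without S1 or without S3 it was 3 of 4 (exact p = 0.0333), without D, F or S2 it was 2 of 4 (exact p = 0.133), and without any 1 control exact p was 0.167. With peaks limited to p at most 1e-05 it was 2 of 5 against none (exact p = 0.182). F and S2 shared a region and D had its own. The potassium-chloride cotransporter SLC12A5, which keeps neuronal chloride low, had peaks in C (2.87), D (2.73), S1 (4.31) and S2 (3.59), that is 1 of 6 against 3 of 5 (exact p = 0.242). D and S2 shared a region, and the peaks of C, S1 and the second of S2 stood apart.

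The other members of the ion carrier families were sparse. SLC9A3, a sodium-proton exchanger, had a peak in F and S1 (exact p = 0.182). SLC24A3 (C2, S2), SLC41A1 (C, S2) and SLC4A10 (C, S3) each had one animal per group. SLC4A7 and SLC9B1 were called in B, SLC8A3 in A, SLC4A2 in S2 and SLC4A1AP in S3, listed after their values were seen.

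The zinc carrier SLC39A7 of the endoplasmic reticulum was called in 3 of 6 controls (7.07, 8.23 and 2.75 in B, C and C3) and 3 of 5 sevoflurane animals (17.6, 16.4 and 6.81 in D, S1 and S2; exact p = 1). The peak of D lay at chr4:34047939-34048209, apart from the region that B, C, C3, S1 and S2 shared. In 5 of the 6 SLC39A7 peaks the files also placed RXRB, PHF1 or RING1 at distance 0, so these peaks cannot be ascribed to 1 gene. SLC22A17, an organic cation carrier-like receptor for lipocalin, had one in C1 (2.52), D (4.49), F (2.40) and S2 (3.08), or 1 of 6 against 3 of 5 (exact p = 0.242). These values come from 2 regions. Those of D and S2 lay at chr7:84705162-84705475, where no control had a peak (exact p = 0.182). Those of C1 and F lay at chr7:84701104-84702139, where D had 2.65 and S2 2.88. Metals counted 2 of 29 named genes with a peak and organic ions, drugs and vitamins 6 of 58. The latter averaged 1.5 ± 0.837 (SD, n = 6) per control and 3 ± 0.707 (SD, n = 5) per sevoflurane animal.

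Mitochondrial carriers (4 of 43) and carriers of nucleotide sugars and other Golgi or endoplasmic reticulum cargo (3 of 38) also had few members with a peak. So did the families classed as sugar and monocarboxylate carriers (4 of 45), not all of which carry these. Each of these classes had a mean of 0.167 per control, and 1, 0.8 and 0.6 per sevoflurane animal, in this order. SLC25A23, a calcium-regulated mitochondrial carrier, had a peak in A (5.83), F (20.4) and S2 (2.37). A and F shared a region and S2 had its own. In these peaks the files also placed TUBB4A at distance 0. SLC35C2 had one in F and S3 (exact p = 0.182), and SLC35F1 in A and F. The glucose carrier SLC2A1 was called in C3 only (fold 3.02, percentile 16.9), at chr1:42328637-42328726 (minus strand). SLC5A6 had one in S2 whose 120 bp of overlap with a peak of CAD on the other strand carried the same fold of 14.9, so the strand that gave the reads cannot be told apart. Over all genes, 51 such opposite-strand pairs in an animal were found, 20 with identical fold. Further single-animal members, listed after their values were seen, were SLC45A1 and SLC5A3 (S3), SLC25A25 and SLC25A27 (S3), SLC25A6 (S2), SLC35E1 (S1), SLC39A3 (F), SLC22A23 (S3), SLC20A2 (D) and SLC19A2 (C2). SLC5A3 carries myo-inositol, SLC25A6 exchanges mitochondrial ADP and ATP, and SLC19A2 carries thiamine. No lipid carrier (0 of 12) had a peak, and Fisher's test called 0 genes in the 6 classes with a gene under test.

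**Figure D4:**
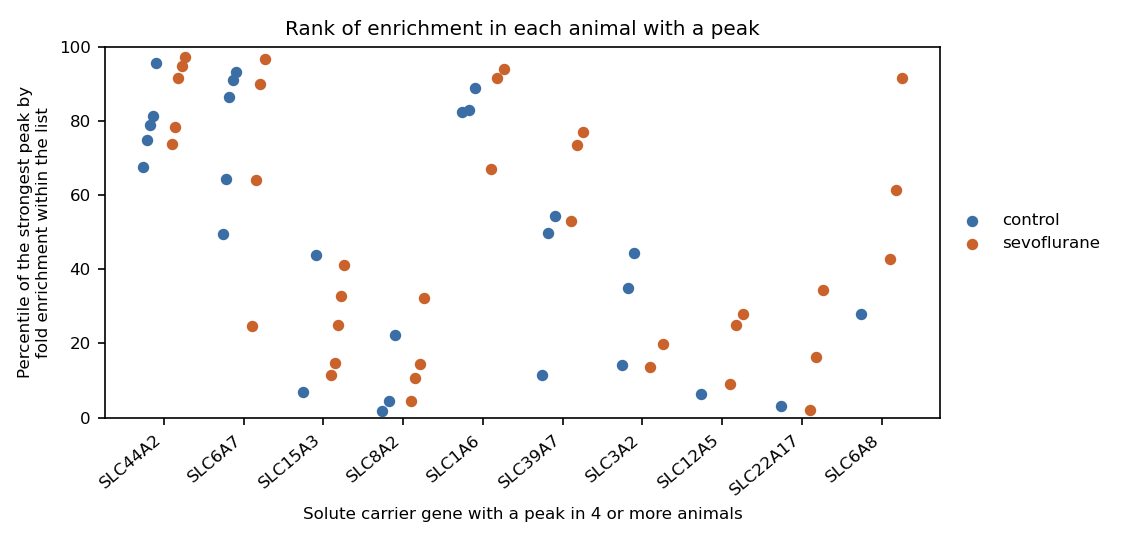
The percentile of a gene's strongest peak by the authors' fold enrichment, among the genes with a peak in the same animal, is plotted for the 10 solute carrier genes present in at least 4 animals, 1 point per animal, coloured by group. In each of the genes with more than 1 animal per group the points of the groups overlap.

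Solute carrier peaks lay toward the 3′ end more often than all peaks, with much of this from a few recurring genes. Of the 118, 109 had a midpoint inside the annotated gene span, and 63 of these (57.8%) lay beyond 80% of it, against 38.3% of all peaks, and 13 (11.9%) before 20%, against 23.3%. Counted by gene, 19 of 43 with a position (44.2%) had a median beyond 80%, against 34.2% of all 3440 genes. Of the 6 genes in at least 6 animals, 5 did, against 39.2% of 388 genes. These shares are descriptions, since peaks of a gene in several animals are not independent. All peaks of SLC44A2 (14), SLC6A7 (9), SLC15A3 (7) and SLC1A6 (6) lay beyond 90% of the gene. By animal the share beyond 80% was 42.9 to 100% in controls (68.3 ± 21.8, SD, n = 6) and 36.8 to 71.4% after sevoflurane (54.0 ± 14, SD, n = 5), which overlap. For all peaks it was 35.7 to 40.9%.

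**Figure D5:**
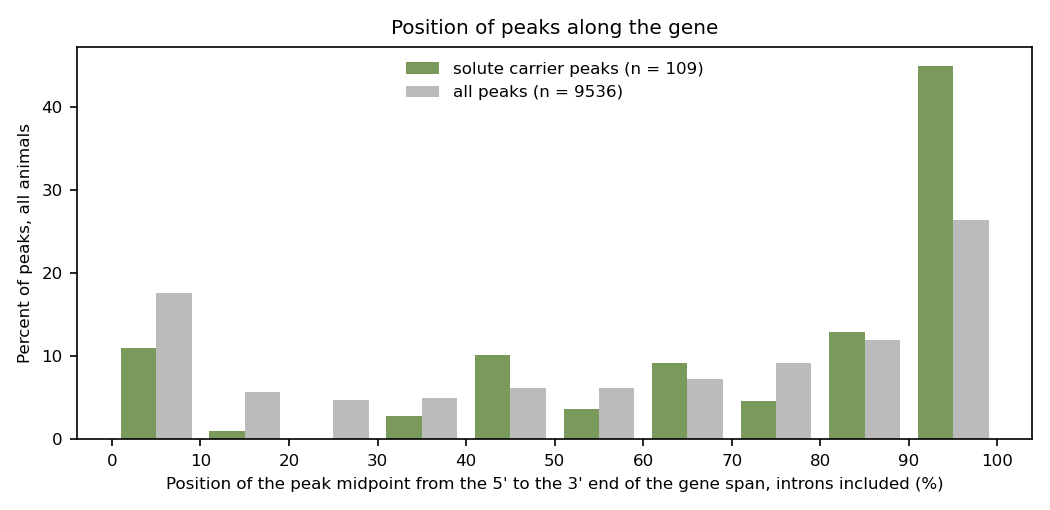
Peaks are plotted by the position of their midpoint along the gene span, in bins of 10% that start at the 5′ end,, as a percent of the 109 solute carrier peaks and of all peaks. Of the solute carrier peaks 49 fall in the last bin, among them all peaks of SLC44A2 (14), SLC6A7 (9), SLC15A3 (7) and SLC1A6 (6).

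Solute carrier peaks covered a median of 150 bp of exonic sequence, from 90 to 330 bp, and 39% lay in more than 1 block, against 35.9% of all peaks. Regions built from overlapping peaks numbered 61, of which 44 were in 1 animal. Of 19 genes in at least 2 animals, 8 had a region that all of those animals shared and 5 had none shared. The called gene was not always the annotated one: 10 more peaks, 3 in controls and 7 after sevoflurane, were annotated to a solute carrier but called in another gene. Among them were SLC16A3, a lactate carrier, in B, F, S1 and S3 (called in CSNK1D), and SLC6A7 in C2 and S2 (called in CAMK2A).

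Genes that work with solute carriers were also examined. Of 16 listed partners and regulators 5 had a peak. WNK2, OXSR1 and NHERF1, kinases and a scaffold that regulate ion carriers, each had one in 0 of 6 controls and 3 of 5 sevoflurane animals (exact p = 0.0606), and the kinase WNK1 in 2 of 6 and 1 of 5 (exact p = 1). None of these 4 tested was called, and they were named after their values were seen. Of all tested genes 83.2% had a higher share of animals with a peak after sevoflurane. How many of all genes had 0 against 3 is not given here. BSG, which escorts lactate carriers to the membrane, had one in 1 control. Of 25 ion pumps and ABC transporters 12 had a peak, 2 ± 1.55 (SD, n = 6) per control and 3.6 ± 2.07 (SD, n = 5) per sevoflurane animal, with 0 of 8 tested called.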

How the data were processed

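m6A-enriched libraries from 11 macaques, of 22 libraries in the labels, had a deposited table of peaks each. The tools StringTie, HISAT2 2.1.0, cutadapt and Trim Galore 0.5.0 and the build rheMac8 are listed, without roles, in the submitters' processing notes. The peak caller is not given in the sources used here. Each deposited peak has the authors' p-value, log10 scores for the p-value and false discovery rate, and a fold enrichment, a ratio, per the file headers. In the deposited files the largest p-value was 0.001, the largest false discovery rate 0.0468 and the smallest fold enrichment 2.06. The depth is unknown, so no counting interval was computed.

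Peak starts count from 0, so 1 was added. A gene counted as present in an animal whose list called at least 1 peak in it. Ensembl identifiers were named by the supplied names table (43 members) or, where it gave none, by the peak tables (3 members). Regions join peaks overlapping by at least 1 bp of exonic block on a strand. Exon numbers rise with the coordinate in 254 of 256 plus-strand and 347 of 349 minus-strand transcripts, so UTR classes are given for plus-strand genes only. Genes and regions in 2 to 9 animals were tested with two-sided Fisher's exact test (SciPy 1.17.1, pandas 2.3.3, NumPy 2.4.6, Python 3.11.15) and Benjamini-Hochberg adjustment over all tested. The smallest p possible with 6 against 5 animals was 0.00216. Animals are the unit of the test, which uses presence or absence only and takes no account of the length of an animal's list. The test was run on simulated lists in which unchanged genes had equal rates in both groups. That simulation did not include the longer sevoflurane lists, so it does not check the test under them.

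Named genes were SLC2A1 and SLC1A3, members in at least 9 animals, up to 10 in each direction by Fisher's p, the 10 in at least 6 animals with the highest percentile, and up to 3 per class. Members and lists were chosen with earlier results of these data known. Classes were set by family number alone, so a class can hold members that carry something else. Alternatives were a stricter p-value, lists of equal length, the annotated gene, no filter on animals, 50% reciprocal overlap, sexes, naming styles, a replicate block and leaving out each animal. The symbol column read first, and genes counted in place of peaks, were chosen after seeing the data. Some members counted in the totals are not reported here by name.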

Additional observations from a re-analysis of the deposited data

Results flagged for a closer look

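In 14 groups of values examined for a sample far from the others, where chance marks about 1 in 20, control C1 stood apart with 4 solute carrier genes with a peak, against 7 or 8 in the other controls. C1 also had the shortest list, with 452 peaks. Without C1 the difference in mean number of solute carrier genes was 6.6, against 7.13 with it.

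Outside the genes counted, peaks annotated to a solute carrier but called in another gene averaged 1.4 per sevoflurane animal against 0.5 per control. The difference was not tested.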

How the results depend on the processing

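The difference in mean number of solute carrier genes, 7.13, was 3.73 with p at most 1e-05, 0.4 with lists of equal length and 3 in males alone, and 6.08 to 8.83 leaving out each animal. The difference in share, 0.103 percentage points, was -0.200 in males alone, -0.0957 in single-letter animals, 0.282 in females alone, 0.329 in numbered animals, and -0.00316 (without C3) to 0.219 leaving out each animal. Genes called more often after sevoflurane, 0, ranged from 0 to 1: SLC15A3 without A or C2 (Fisher's exact p = 0.0476) and SLC4A4 without S1 or S3 (exact p = 0.0333). Those in controls stayed at 0 to 0. Regions called after sevoflurane, 1, were 0 with equal length and in females alone, and 1 to 2 leaving out each animal. Regions called in controls were 0. With p at most 1e-05 the called region was that of SLC44A2, not SLC15A3. The difference in the late-lying (beyond 80%) share of solute carrier peaks, -14.3 points, ranged from -19.4 to -8.01 leaving out each animal, and was -25 with lists of equal length and -7.14 in males alone. Differences in share of animals that changed sign were SLC6A7 (13.3 points with p at most 1e-05), SLC1A6 (-13.3, equal length), SLC39A7 (-16.7, females), the 5′-side SLC15A3 region (3.33 with p at most 1e-05, 8.33 in females) and the 3′-side SLC44A2 region (13.3 with p at most 1e-05). The causes were not tested. Over all genes calls numbered 10 with p at most 1e-05, 4 at equal length and 31 to 85 leaving out each animal, against 27. Deviations of same-numbered animals from their group means hardly correlated (0.0628, 0.000159 and 0.0234). Such values cannot tell whether these animals were handled together. With a replicate block 19 genes and, among solute carriers, 0 genes and the SLC15A3 region were called, with a mean difference of 7.42 genes. Fisher's test could reach no p under 0.333 in males or 0.1 within naming styles, so no calls were made there. Depth being unknown, what it limits could not be measured.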
